A study of Mus musculus with 14 samples.

Results

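The aminoacyl-tRNA synthetase genes are the 38 genes, of 56923 in the count table, whose symbol is an amino acid letter followed by ars, with or without 1, 2, a, b or l2, together with Eprs. Of these, 17, whose symbols end in 2, encode the mitochondrial enzymes, Gars and Kars each encode both a cytosolic and a mitochondrial form, and the other 19 encode cytosolic enzymes, among them Tarsl2, which despite its ending is another cytosolic threonyl enzyme, and Farsa and Farsb, the α and β subunits of phenylalanyl-tRNA synthetase. The rule uses names alone and no measured value. The study asked whether lactate and the lactylation of histone H3 at lysine 18 have a part when the embryo's own genome is switched on at the 2-cell stage, and the synthetase genes are described here over its 7 conditions.

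The libraries were made from 2-cell embryos of ICR mice, from females 6 to 8 weeks old, with 2 libraries a condition and 5 embryos a library. G&N embryos were cultured from 24 h post-hCG in modified KSOM without amino acids or BSA, with 5 μM Gne140, an inhibitor of the lactate dehydrogenases LDHA and LDHB, with 50 μM NMN, a precursor of NAD+, and with 10 mM lactate. G&N-L embryos had the same additions and no lactate. Both groups were collected as early 2-cell embryos at 30 h and as late 2-cell embryos at 54 h post-hCG. Another group of late 2-cell embryos, G&N-L + Lac-CoA, had 1 mM lactyl-CoA injected as zygotes. Its medium held Gne140 and NMN and no lactate, and its label names the agent only as CoA. The last groups, late 2-cell H3K18R and WT, had mRNA of histone H3.1, H3.2 and H3.3 injected at 14 h post-hCG, either with lysine 18 changed to arginine or of wild type, and their treatment labels name neither Gne140 nor NMN. The columns of the mutant libraries are named K18A while their samples are titled H3K18R, and the treatment labels of the early 2-cell libraries name Gne140 without NMN for G&N and Gne140 with NMN for G&N-L. H3c1, which encodes an H3.1 histone, reached 43643 and 83390 counts in H3K18R and 4 and 3 in the libraries labelled WT, so the latter are called the libraries labelled WT throughout.

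Each synthetase joins 1 amino acid to the tRNAs that carry its codons, the step by which the genetic code is read, and uses ATP to do so. The enzymes fall into 2 classes by the fold of their catalytic domain, class I and class II. In the cytosol of mammalian cells, 8 synthetase genes (Dars, Eprs, Iars, Kars, Lars, Mars1, Qars and Rars) supply a large complex held together by the scaffold proteins AIMP1, AIMP2 and AIMP3, the last encoded by Eef1e1. Mitochondria translate their own mRNAs with a separate set of enzymes, which are encoded in the nucleus and imported. Early cleavage runs on mRNA and protein stored in the oocyte, much of which is cleared as the embryonic genome becomes active. Several cytosolic synthetase genes are known targets of ATF4, a transcription factor of the amino acid response.

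The 250 bases before the transcription start are shown for 6 members that passed the test between the early and the late 2-cell stage, 4 that rose (Aars, Yars, Cars2, Mars2) and the pair of subunits that fell (Farsa, Farsb). The sequences are those of RefSeq on GRCm38.p6, read 5′ to 3′ on the strand of the gene, and capitals mark 4 motifs searched on both strands: TGATGNAA, bound by ATF4 with C/EBP partners, CCGGAAG, an ETS motif, CACGTG, an E-box, and CCAAT. They lie at chr8:111033592-111033841 (plus strand) for Aars, chr4:129189653-129189902 (plus) for Yars, chr8:11550772-11551021 (minus) for Cars2, chr1:55236927-55237176 (plus) for Mars2, chr8:84856736-84856985 (plus) for Farsa and chr1:78488898-78489147 (minus) for Farsb.
Aars: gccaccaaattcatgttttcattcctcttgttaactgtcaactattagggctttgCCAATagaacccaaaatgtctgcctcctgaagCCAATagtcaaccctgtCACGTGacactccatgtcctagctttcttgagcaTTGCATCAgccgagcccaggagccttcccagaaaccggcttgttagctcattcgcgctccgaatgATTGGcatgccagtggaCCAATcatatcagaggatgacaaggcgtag
Yars: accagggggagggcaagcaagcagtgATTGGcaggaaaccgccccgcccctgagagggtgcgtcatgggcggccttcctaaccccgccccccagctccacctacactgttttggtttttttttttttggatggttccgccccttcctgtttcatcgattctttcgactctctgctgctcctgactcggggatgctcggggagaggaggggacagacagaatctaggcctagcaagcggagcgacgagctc
Cars2: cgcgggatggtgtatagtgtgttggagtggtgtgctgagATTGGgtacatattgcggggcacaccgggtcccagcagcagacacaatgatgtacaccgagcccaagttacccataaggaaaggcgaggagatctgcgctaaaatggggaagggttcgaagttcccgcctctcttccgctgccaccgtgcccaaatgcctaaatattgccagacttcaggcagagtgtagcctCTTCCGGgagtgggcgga
Mars2: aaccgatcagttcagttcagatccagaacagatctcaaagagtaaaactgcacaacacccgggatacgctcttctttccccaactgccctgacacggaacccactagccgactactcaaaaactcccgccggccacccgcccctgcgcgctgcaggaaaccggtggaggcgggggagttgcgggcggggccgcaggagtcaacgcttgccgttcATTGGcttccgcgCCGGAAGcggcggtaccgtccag
Farsa: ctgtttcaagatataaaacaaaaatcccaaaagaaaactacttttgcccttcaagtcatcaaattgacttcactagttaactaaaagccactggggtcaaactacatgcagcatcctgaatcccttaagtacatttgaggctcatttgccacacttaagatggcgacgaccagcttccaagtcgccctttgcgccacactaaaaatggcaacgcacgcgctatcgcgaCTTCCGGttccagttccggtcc
Farsb: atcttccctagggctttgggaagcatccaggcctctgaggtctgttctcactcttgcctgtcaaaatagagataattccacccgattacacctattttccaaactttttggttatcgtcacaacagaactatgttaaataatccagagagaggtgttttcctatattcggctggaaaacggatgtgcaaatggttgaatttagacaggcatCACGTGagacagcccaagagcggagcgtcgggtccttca

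The promoter of Aars held the ATF4 motif on the opposite strand, an E-box and 4 CCAAT boxes. Those of Cars2 and Mars2 held an ETS motif and a CCAAT box, that of Yars a CCAAT box, that of Farsa an ETS motif and that of Farsb an E-box. Of the 38 members, 28 had a RefSeq promoter in the table used, and those without an entry included Cars, Hars, Hars2, Lars, Nars, Pars2, Rars, Vars and Wars. The ATF4 motif was found for 3 of the 28 (Aars, Gars and Tars, all cytosolic or dual), against 3.45% of all 32851 promoters of the same length. The ETS motif was found for 7 (Cars2, Farsa, Gars, Mars1, Mars2, Sars and Sars2), against 6.91%, the E-box for 3 (Aars, Farsb and Iars), against 6.02%, and CCAAT for 12, against 33.8%. Overlapping matches were all counted, and no motif contains another. The GC content of the member promoters had a median of 56.8%, from 45.2% to 71.6%, against a median of 52.4% for all promoters.

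Nothing in the labels ties a library to a separate culture, so p-values measure the spread between libraries, which may be technical. Depth ran from 20350427 to 61275465 counts a library, so that a count of 0 allows up to 3 counts, or 0.0490 to 0.147 CPM (a gene's counts scaled by the library's total). This limit covers counting error only. All 8 oocyte and early embryo markers were detected. The summed level of 7 late 2-cell markers was 113 to 191 CPM in the early libraries and 1820 to 2933 CPM in the late ones. Of 12 cumulus and granulosa cell markers 2 (Amh and Inhba) were at 0 in every library, and their sum was 18.2 to 46.2 CPM. The sum of the oocyte markers was 2394 to 2718 CPM in 3 of the 4 libraries of the H3K18R and WT-labelled groups and 4632 to 8644 CPM in the other 11. In bulk libraries, fewer cells and less RNA per cell cannot be told apart. CPM measures a share of a library, not an absolute amount, and the levels below use library sizes scaled by TMM over all 14 libraries.

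The synthetase genes together made up 1092 to 1602 CPM in early 2-cell libraries and 806 to 1233 CPM in late ones. Per kilobase of exon, Nars, which encodes the asparaginyl enzyme, had the highest median level of the cytosolic genes at 21.6 CPM per kb, followed by Iars (20.1) and Farsb (18.4), and Vars, the cytosolic valyl enzyme, the lowest at 0.00858. Of the dual genes, Kars (lysyl) had a median of 6.95 CPM per kb and Gars (glycyl) of 2.41. Among the mitochondrial genes, Fars2 (phenylalanyl) at 9.08 and Lars2 (leucyl) at 4.74 CPM per kb stood above the rest, the next being Mars2 (methionyl) at 1.13, and Iars2 and Pars2 (isoleucyl and prolyl) had a median of 0. The levels of Dars (aspartyl) were steadier than those of Nars, from 44.2 to 149.8 CPM over the 14 libraries with a median of 98.7 CPM.

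The libraries of a condition agreed to different degrees. Iars had 129.7 and 129.8 CPM in late G&N, Lars2 had 51.1 and 148.2 CPM in H3K18R, and Pars2 had 38 counts in one early G&N library and 0 in the other, and 0 and 67 counts in the libraries labelled WT. Of the 38 genes, 13 were at 0 in at least 1 library, from Pars2 in 9 and Iars2 in 8 of the 14 libraries down to Yars2, Vars2, Tarsl2 and Mars1 in 1 each. Per the annotation on GRCm39 (vM39), 27 members share exon bases with another gene, 26 of them with a gene on the opposite strand, and how the counting used strand is not given in the sources used here. The longest stretches shared with protein-coding genes were 4080 bases of Cars2 with Naxd, 3827 of Mars2 with Boll, 3594 of Yars2 with Dnm1l, 3576 of Mars1 with Ddit3, 2884 of Iars2 with Rab3gap2, 1536 of Yars with Nhsl3, 1348 of Farsb with Sgpp2, 1326 of Aars with Exosc6 on the same strand, 601 of Ears2 with Ubfd1 and 501 of Fars2 with Nrn1.

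**Figure D1:**
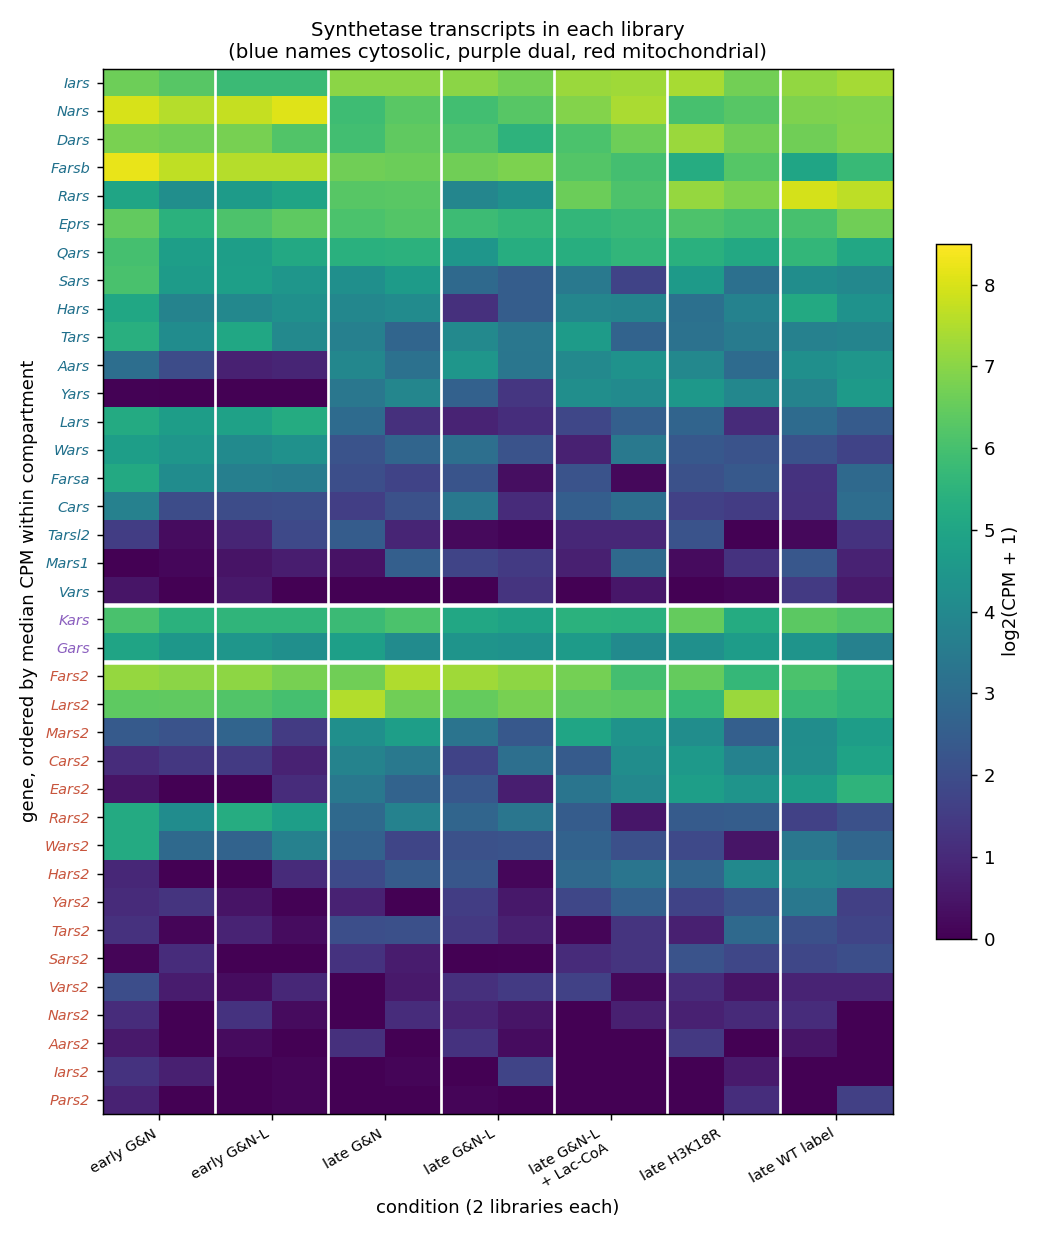
Level of 37 of the synthetase genes (rows, cytosolic, dual and mitochondrial from top to bottom) in each of the 14 libraries (columns, 2 a condition), as log2(CPM + 1). Nars and Farsb were brightest in early 2-cell libraries, Rars was brightest in the libraries labelled WT, and Yars was dark in all 4 early libraries. Fars2 and Lars2 were the brightest mitochondrial genes, except in the second library labelled WT, where Ears2 lay between them.

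The first comparison asked what changed from the early to the late 2-cell stage with lactate present (late G&N over early G&N), the interval in which the embryonic genome is activated. Of the 36 members tested, 4 rose (Yars, Rars, Mars2 and Cars2) and 4 fell (Nars, Farsa, Farsb and Wars) at an adjusted p under 0.05 (edgeR, quasi-likelihood). Of all 19443 genes tested, 8.18% were higher and 5.47% lower by the same rule. The 20 cytosolic and dual members tested had a median log2 fold change of -0.47 with 8 above 0, and the 16 mitochondrial ones a median of 0.61 with 10 above 0, beside a median of 0.08 for all genes. Without the first early G&N library the cytosolic and dual median was 0.0622, beside 0.617 for all genes. All 4 members that fell were cytosolic, and by catalytic class 4 class I genes rose and 1 fell, while 0 class II genes rose and 3 fell.

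Yars, which encodes tyrosyl-tRNA synthetase, had 2 and 0 counts in early G&N, 0 and 0 in early G&N-L, and 340 and 600 counts in late G&N. It had at most 2 counts in each early library and at least 58 in each late one. The summed counts per depth were 689 times as high in late G&N (95% interval 190 to 5697 from counting alone), and the adjusted p was 0.0157. Rars, which encodes the arginyl enzyme of the complex, had 30.7 and 17.2 CPM in early G&N and 77.7 and 79.0 in late G&N, a log2 fold change of 1.66 ± 0.34 (SE, adjusted p = 0.0373). Both late libraries stood above both early ones. The mitochondrial methionyl gene Mars2 had 4.34 and 3.48 CPM in early G&N and 17.8 and 26.03 in late G&N (log2 fold change 2.42 ± 0.50, adjusted p = 0.0367), and the cysteinyl gene Cars2 went from 1.10 and 1.59 CPM to 13.0 and 9.94 (2.996 ± 0.70, adjusted p = 0.0488). For these genes too, the groups did not overlap.

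Nars had 254 and 187 CPM in early G&N and 57.1 and 79.5 CPM in late G&N, a fall of log2 fold change -1.75 ± 0.29 (adjusted p = 0.0214). Phenylalanyl-tRNA synthetase needs equal numbers of its α and β chains, and both of its genes fell. Farsa went from 34.5 and 16.6 to 3.15 and 2.30 CPM (-3.27 ± 0.56, adjusted p = 0.0243) and Farsb from 293 and 207 to 100.4 and 95.9 CPM (-1.41 ± 0.25, adjusted p = 0.0262). Wars, the tryptophanyl gene, went from 26.3 and 20.9 to 3.48 and 5.88 CPM (-2.40 ± 0.51, adjusted p = 0.0389). In each of the 4, the early libraries lay above the late ones.

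Other members named by the rule did not pass the threshold. Lars, the cytosolic leucyl gene, had 35.7 and 25.4 CPM in early G&N and 6.79 and 1.29 in late G&N (log2 fold change -2.97 ± 0.86, adjusted p = 0.0705). Ears2, the mitochondrial glutamyl gene, had 0.353 and 0 CPM early and 9.63 and 5.46 late (5.40 ± 1.76, adjusted p = 0.0884). Tars (threonyl) had a log2 fold change of -1.69 ± 0.61, Wars2 of -2.45 ± 0.91, Rars2 of -1.48 ± 0.56, Iars2 of -4.42 ± 1.98, Lars2 of 0.66 ± 0.37 and Tars2 of 2.19 ± 1.43, with adjusted p from 0.117 to 0.354. DESeq2 on the same genes called 6 members higher and 7 lower, adding Ears2 and Mars1 above and Lars, Tars and Wars2 below. Of all 19443 genes, it called 3623 higher and 2314 lower. Library totals without TMM gave 4 members higher and 2 lower, where 2623 of all genes were called. The medians were then 0.46 for all genes, -0.09 for cytosolic and dual and 1.07 for mitochondrial members. With any 1 library left out, fewer members were called, not all of them among the 8, and fewer of all genes were called too. The calls fell most without either late G&N library, for members and for all genes alike.

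**Figure D2:**
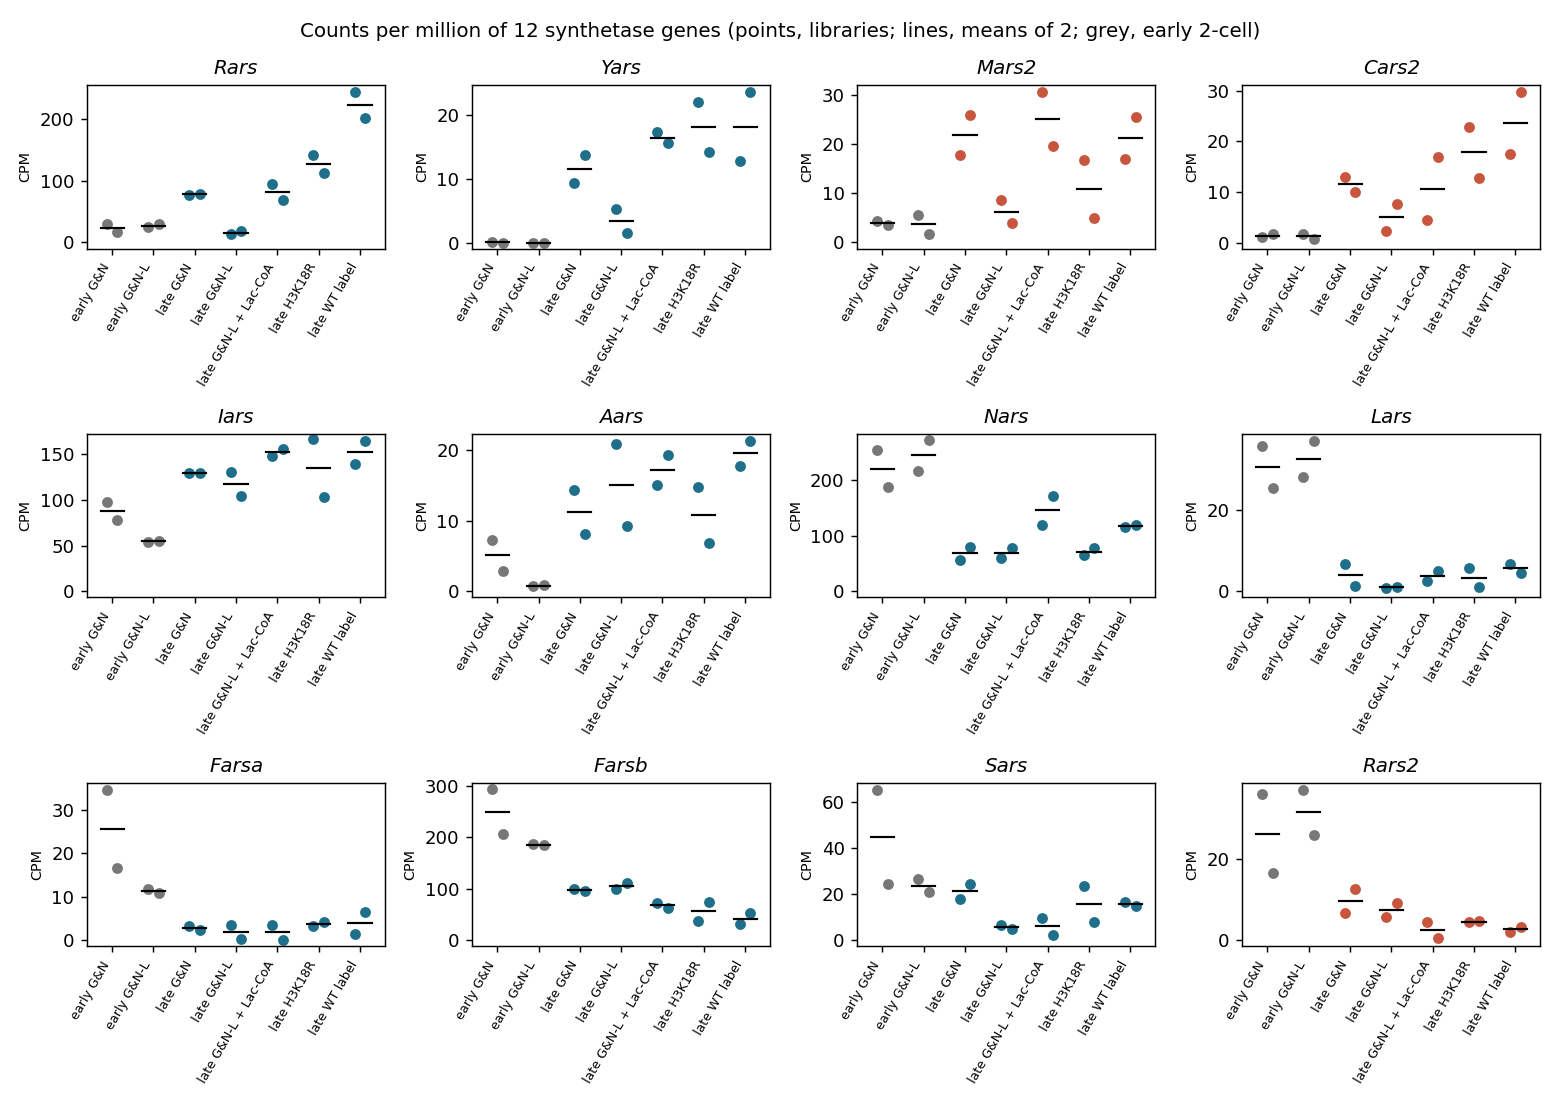
CPM of 12 synthetase genes in each library (points), with the mean of the 2 libraries of a condition (lines), early 2-cell in grey, cytosolic genes in blue and mitochondrial ones in red, each on its own linear scale. Rars rose from early to late 2-cell with lactate and was at 13.9 and 18.03 CPM in late G&N-L, Yars was at or near 0 in the early libraries, and Nars, Lars, Farsa, Farsb and Rars2 were highest in the early libraries.

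Without lactate (late G&N-L over early G&N-L), 34 members were tested and 2 rose (Aars and Iars) while 5 fell (Lars, Nars, Sars, Farsb and Rars2). Of all 18604 genes tested, 5.97% were higher and 5.87% lower. By catalytic class, 1 class I gene rose and 2 fell, and 1 class II gene rose and 3 fell. The 21 cytosolic and dual members had a median log2 fold change of -0.70 with 6 above 0, and the 13 mitochondrial ones tested of 1.14 with 10 above 0, beside 0.15 for all genes. With library totals in place of TMM, the median of all genes moved to 0.51 and those of the members to -0.33 and 1.47. The calls moved to 3 members higher and 3 lower, where 2504 of all genes were called.

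Lars had 27.9 and 36.8 CPM in early G&N-L and 0.806 and 1.17 in late G&N-L, with a log2 fold change of -5.09 ± 0.47 (adjusted p = 0.00779). Lars had the smallest p of the members here. Nars went from 217 and 273 to 59.4 and 77.6 CPM (-1.90 ± 0.24, adjusted p = 0.0145). Sars, the seryl gene, went from 26.5 and 20.9 to 6.42 and 4.64 CPM (-2.15 ± 0.41, adjusted p = 0.0343), and Rars2, the mitochondrial arginyl gene, from 36.96 and 25.97 to 5.82 and 9.05 CPM (-2.14 ± 0.40, adjusted p = 0.0337). Farsb, a called member outside the rule for named genes, went from 186.4 and 185.8 to 99.4 and 111.6 CPM (-0.88 ± 0.17, adjusted p = 0.0359). All of these had early libraries above late ones.

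Aars, the alanyl gene whose promoter is shown above, had 0.731 and 0.861 CPM in early G&N-L and 20.9 and 9.18 in late G&N-L (4.18 ± 0.71, adjusted p = 0.0272). Iars, the isoleucyl gene of the complex and likewise outside the naming rule, went from 54.5 and 55.0 to 130.3 and 104.6 CPM (1.04 ± 0.21, adjusted p = 0.0418). Both genes were higher in each late library than in any early one. Rars, which rose with lactate, had 24.6 and 29.9 CPM in early G&N-L and 13.9 and 18.03 in late G&N-L, a log2 fold change of -0.84 ± 0.34 (adjusted p = 0.16). Yars had 0 and 0 counts early and 203 and 58 late, at least 88.1-fold higher against 3 counts over the early group, with an adjusted p of 0.0592. Lars2, Wars2 and Cars2 had log2 fold changes of 0.49, -1.47 and 1.93 and adjusted p of 0.166 to 0.277. With any 1 library left out, fewer members and fewer of all genes were called. Lars and Nars were the members called again in some of these fits.

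Over all 14 libraries in one fit, 12 of the 38 members differed among the 7 conditions at an adjusted p under 0.05, where 23.7% of 25041 genes did. They were the cytosolic Rars (adjusted p = 2.87e-05), Yars (0.000186), Nars (0.000766), Farsb (0.000854), Lars (0.00467), Aars (0.00972) and Iars (0.0171), and the mitochondrial Cars2 (0.00966), Rars2 (0.021), Ears2 (0.0254), Mars2 (0.0339) and Sars2 (0.0489). In all, 7 of the 21 cytosolic and dual genes and 5 of the 17 mitochondrial ones passed. By catalytic class, 8 of 18 class I and 4 of 19 class II genes passed, with Eprs, which holds both kinds of domain, in neither count. DESeq2's likelihood ratio test called 19 of the members and 9417 of the 25041 genes.

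The next comparison asked what the absence of lactate changed in late 2-cell embryos (late G&N-L over late G&N). Rars was the member with the smallest p. It had 77.7 and 79.0 CPM in G&N and 13.9 and 18.03 CPM in G&N-L, a log2 fold change of -2.25 ± 0.28. The 2 groups lay far apart compared with the spread within each. By edgeR, no gene of the 19481 tested passed the adjusted threshold, with an adjusted p of 0.311 for Rars, and 0 of 35 members were called. DESeq2 on the same 19481 genes called 313 higher and 621 lower. Of the members it called 2 lower, Rars (adjusted p = 6.16e-08) and Sars (0.0242). The fit of all 14 libraries called 1 gene higher and 10 lower, among the latter Rars (adjusted p = 0.0441). Over the other alternatives, the adjusted p of Rars ran from 0.00164 without a filter on low counts to 0.583 without the second G&N library, and its log2 fold change from -2.44 to -2.09.

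At an unadjusted p under 0.05, 7 members were lower and 0 higher, against 7.65% of all genes lower. Sars had 18.01 and 24.4 CPM in G&N and 6.42 and 4.64 in G&N-L (log2 fold change -1.88 ± 0.46), Kars 54.4 and 67.4 against 33.5 and 29.0 (-0.91 ± 0.27), and the histidyl gene Hars 14.4 and 16.2 against 1.25 and 4.72 (-2.32 ± 0.75). Each of these was lower in both libraries without lactate. Mars2 had 17.8 and 26.03 CPM with and 8.58 and 4.04 without lactate (-1.73 ± 0.55). Sars2, the mitochondrial seryl gene, had 50 and 24 counts with lactate and 0 and 1 without, a level 66.9 times as high with lactate (95% interval 11.6 to 2677 from counting alone). Ears2 and Cars2 followed with log2 fold changes of -1.68 ± 1.02 and -1.18 ± 0.72. The adjusted p of all these was between 0.324 and 0.661.

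The cytosolic and dual members had a median log2 fold change of -0.34 with 14 of 20 below 0, the mitochondrial ones of -0.31 with 10 of 15 below 0, and all genes of -0.02. Of all 19481 genes tested, 9926 were below 0. All 8 synthetase genes of the complex were below 0, with a median of -0.42 and a range of -2.25 to -0.09, and Rars and Kars were those with an unadjusted p under 0.05. The 3 scaffold genes of the complex had a median of 0.155, with 2 above 0 and 1 below.

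In early 2-cell embryos (early G&N-L over early G&N), 0 of 34 members were called, with an adjusted p of 1 for each of those named here, and 0 were called by DESeq2. At an unadjusted p under 0.05, 3 were lower and 0 higher, against 2.70% of 17343 genes lower. Aars had 7.32 and 2.94 CPM in G&N and 0.731 and 0.861 in G&N-L (log2 fold change -2.52 ± 0.84), Iars 98.2 and 78.2 against 54.5 and 55.0 (-0.56 ± 0.21), and Farsa 34.5 and 16.6 against 11.9 and 10.8 (-1.02 ± 0.41). The groups did not overlap for any of the 3. Sars, Yars2, Wars2 and Rars2 had log2 fold changes of -0.76, -2.55, -1.02 and 0.41, and Rars of 0.34 ± 0.36. Iars2 had 70 and 30 counts in G&N and 0 and 2 in G&N-L, 31.2 times as high per depth with lactate (95% interval 8.42 to 261 from counting alone). The medians were -0.21 for cytosolic and dual, -0.05 for mitochondrial and -0.01 for all genes. Without the first early G&N library they became 0.198, 0.0907 and 0.0944.

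Whether the change without lactate differed between the stages was tested by an interaction term over 8 libraries, those of G&N and G&N-L at both stages. Of 37 members, 0 passed, and 3 had an unadjusted p under 0.05 against 7.55% of 22287 genes. For Rars, the late difference was lower than the early one by 2.56 ± 0.48 on the log2 scale (adjusted p = 0.494, by DESeq2 0.000431). For Aars, it was higher by 3.03 ± 0.99 (adjusted p = 0.641), and for Tarsl2 lower, at -5.55 ± 2.31 (adjusted p = 0.65). Lars, Mars2, Iars2, Vars2 and Yars2 had adjusted p from 0.65 to 0.795. The change without lactate was thus not shown to differ between the stages by edgeR, and for Rars the call depended on the tool and on the filter (adjusted p = 0.00317 with no filter).

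The injection of Lac-CoA was compared with late G&N-L and with late G&N. No injection is described for those 2 groups, so injecting and Lac-CoA itself cannot be told apart. Both comparisons use the same 2 Lac-CoA libraries, and the G&N-L and G&N libraries also enter the lactate and stage comparisons, so these results are not independent of each other. Against G&N-L, 0 of 35 members were called, and 6 were higher and 2 lower at an unadjusted p under 0.05, against 6.92% and 6.38% of 19610 genes. DESeq2 called 3 members higher (Rars, Nars and Mars2), where it called 687 of all genes higher and 528 lower. Rars had 13.9 and 18.03 CPM in G&N-L, 94.99 and 68.8 with Lac-CoA and 77.7 and 79.0 in G&N. With Lac-CoA it lay above both G&N-L libraries, and on either side of the level of G&N. The Lac-CoA libraries also had a higher sum of late 2-cell markers (2933 and 2919 CPM, against 1879 and 2194 in G&N-L and 1820 and 2076 in G&N) and a lower sum of oocyte markers (5819 and 5023 CPM, against 6381 and 7922 and 6359 and 6239), whose part in these results was not tested. Its log2 fold change was 2.32 ± 0.31 against G&N-L (adjusted p = 0.294, by DESeq2 1.11e-07) and 0.16 ± 0.27 against G&N (adjusted p = 1).

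Nars had 119.8 and 171.9 CPM with Lac-CoA, above 59.4 and 77.6 in G&N-L and above 57.1 and 79.5 in G&N. On the log2 scale it differed by 1.04 ± 0.27 against G&N-L (adjusted p = 0.297, by DESeq2 0.0173) and 1.19 ± 0.30 against G&N (adjusted p = 0.5, by DESeq2 0.0143). Yars had 17.4 and 15.6 CPM with Lac-CoA and 5.28 and 1.51 in G&N-L (2.23 ± 0.74), and Mars2 30.7 and 19.6 against 8.58 and 4.04 (1.94 ± 0.56, by DESeq2 adjusted p = 0.0298). Sars2 had 47 and 63 counts against 0 and 1, a level 101 times as high (95% interval 17.8 to 4040 from counting alone). Ears2 was at 2.30 ± 0.99 on the log2 scale. In the other direction, Farsb had 73.1 and 61.9 CPM with Lac-CoA against 99.4 and 111.6 (-0.69 ± 0.22) and Fars2 103.5 and 61.4 against 154.7 and 132.2 (-0.85 ± 0.32).

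Against G&N, 0 of 34 members were called, and Nars was the 1 higher at an unadjusted p under 0.05, with 0 lower, where 4.41% of 19613 genes were higher and 4.10% lower. DESeq2 called 1 member, Nars, higher, where it called 271 of all genes higher and 205 lower. Sars had 9.78 and 2.28 CPM with Lac-CoA and 18.01 and 24.4 in G&N (log2 fold change -1.72 ± 0.76). Farsb, Lars2 and Fars2 had log2 fold changes of -0.45, -0.68 and -0.65, and Cars, Hars2 and Yars2 of 1.29, 1.17 and 3.36. The medians were 0.32 for cytosolic and dual and 0.06 for mitochondrial members against G&N-L, and 0.15 and 0.11 against G&N, with -0.01 and 0.01 for all genes. The mitochondrial medians changed sign, to -0.29 and -0.21 with no filter and -0.24 and -0.11 in the fit of 14 libraries. Without the second Lac-CoA library they were -0.21 and -0.35, beside -0.135 and -0.111 for all genes. The cytosolic and dual median against G&N was then also below 0. Of the 8 complex members, 7 were above 0 against G&N-L and 5 against G&N, where 9726 of 19610 and 9891 of 19613 genes were. Of the 3 scaffold genes, 1 was above 0 in each, with medians of -0.505 and -0.259.

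The H3K18R libraries were compared with the libraries labelled WT. H3c1 was at 43643 and 83390 counts in the former and 4 and 3 in the latter. The groups thus differ in H3c1 mRNA as well as in the mutation, and the 2 cannot be told apart here. The oocyte marker sum was 2718 and 4632 against 2394 and 2447 CPM, and its part in the result was not tested. No member of 36 was called by edgeR or DESeq2, and 3 were lower and 0 higher at an unadjusted p under 0.05, against 2.67% of 17704 genes lower. Rars had 244 and 202 CPM in the libraries labelled WT and 141.6 and 112.0 in H3K18R (log2 fold change -0.81 ± 0.29, adjusted p = 0.734). Hars had 34.6 and 19.2 against 7.86 and 12.6 CPM (-1.39 ± 0.52) and Nars 115.0 and 118.6 against 64.8 and 77.5 (-0.71 ± 0.28). The 3 were lower in each H3K18R library. Vars had 40 and 16 counts in the libraries labelled WT and 0 and 2 in H3K18R, 21.5 times as high per depth in the former (95% interval 5.67 to 182 from counting alone). Wars2 had a log2 fold change of -2.30 ± 1.11, Ears2 and Mars2 of -0.63 and -0.96, and Lars2 of 1.03 ± 0.54, with 51.1 and 148.2 CPM in the 2 mutant libraries. The medians were -0.27 for cytosolic and dual, -0.17 for mitochondrial and 0.03 for all genes, and the mitochondrial median was 0.104 with no filter, 0.123 with at least 10 counts in every library and 0.102 in the fit of 14 libraries.

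The libraries labelled WT were also set beside late G&N, both late 2-cell. By the methods they differ in injection and medium, although H3c1 was at 4 and 3 counts in the former and 6 and 2 in the latter, and they differ in the oocyte marker sum given above (2394 and 2447 against 6359 and 6239 CPM), whose part in the result was not tested. Rars was the 1 of 36 members called, with 244 and 202 CPM against 77.7 and 79.0 (log2 fold change 1.46 ± 0.22, adjusted p = 0.0413). Of all 18986 genes, 1.94% were higher and 2.68% lower. With any 1 of the 4 libraries left out, Rars was no longer called, and fewer of all genes were called as well. Of the same 18986 genes, DESeq2 called 2020 higher and 2131 lower. Among the members it called 4 higher (Rars, Ears2, Hars2 and Nars) and 3 lower (Farsb, Lars2 and Fars2).

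Of these, Ears2 had 25.7 and 45.6 CPM in the libraries labelled WT and 9.63 and 5.46 in G&N (log2 fold change 2.19 ± 0.52, adjusted p = 0.074), Hars2, the mitochondrial histidyl gene, 13.8 and 11.9 against 2.79 and 4.43 (1.79 ± 0.56, adjusted p = 0.112), and Nars 0.74 ± 0.24 on the log2 scale. Lars2 had 52.7 and 44.9 against 181.6 and 99.8 CPM (-1.58 ± 0.37, adjusted p = 0.0725), Fars2 67.7 and 46.9 against 100.5 and 178.2 (-1.32 ± 0.35, adjusted p = 0.0895) and Farsb 31.1 and 52.5 against 100.4 and 95.9 (-1.28 ± 0.33, adjusted p = 0.0847). Vars had 40 and 16 counts against 0 and 0, at least 26.9-fold higher against 3 counts over the G&N group. The medians were 0.41 for cytosolic and dual and 0.93 for mitochondrial members, and all genes lay at -0.16, so that the members' values are read against that shift.

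**Figure D3:**
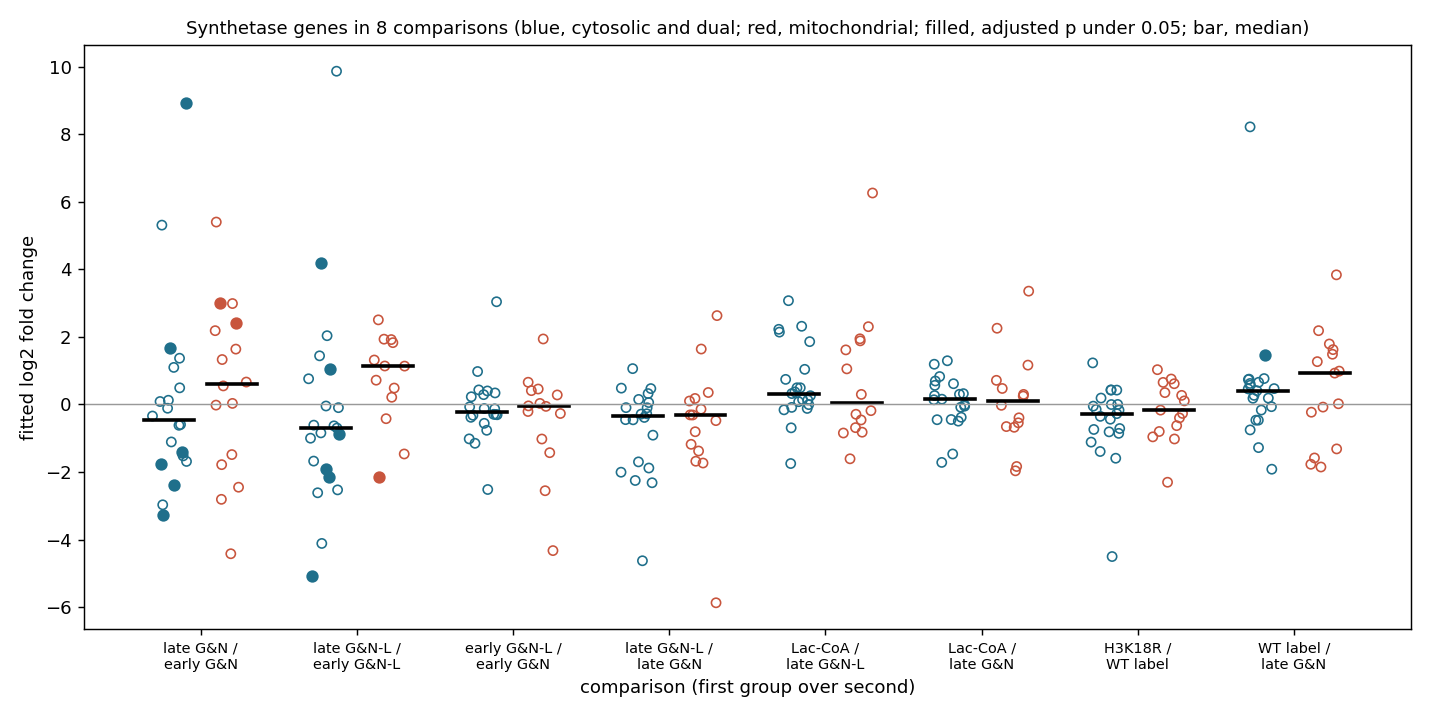
Fitted log2 fold change of each synthetase gene tested (points) in 8 comparisons of 2 groups, cytosolic and dual genes in blue and mitochondrial genes in red, with filled points at an adjusted p under 0.05 and bars at the medians. Filled points appear in the 2 stage comparisons (8 and 7 genes) and for Rars in the libraries labelled WT over G&N. For genes at or near 0 counts in 1 group, such as Yars, the fitted size depends on the prior count.

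Cytosolic and mitochondrial genes were set against each other within each library, where the scaling between libraries has no part. Mitochondrial genes made up 20.8% ± 2.5 (SD, n = 2) of the summed synthetase CPM in early G&N-L and 21.1% ± 2.0 in early G&N. In late G&N the share was 32.4% ± 0.9 and in late G&N-L 33.5% ± 1.1. It was 23.5% ± 2.7 with Lac-CoA, 25.9% ± 5.6 in H3K18R and 19.5% ± 0.3 in the libraries labelled WT. Taken as the median over amino acid pairs in place of sums, the log2 ratio of mitochondrial to cytosolic genes differed in the opposite direction for Lac-CoA over G&N-L (0.43 against -0.72 from sums), Lac-CoA over G&N (0.51 against -0.65) and the WT label over G&N (0.82 against -0.98). By sums, the 4 late G&N and G&N-L libraries, at 31.7% to 34.3%, lay above the other 10, at 19.0% to 29.8%. With 2 libraries on each side, the smallest two-sided p of an exact permutation test is 0.333, and the shares were therefore compared by their spread alone.

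Lars2 and Fars2 held 52.8% to 87.0% of the mitochondrial sum in 13 libraries and 37.8% in the second library labelled WT. With these 2 genes left out, the order of the conditions changed. The remaining 15 mitochondrial genes then made up 3.63% to 6.58% in the early libraries, 6.05% and 6.37% in late G&N-L, 8.41% and 8.83% in late G&N, 8.30% and 8.79% with Lac-CoA, 10.8% and 12.1% in H3K18R and 10.1% and 13.3% in the libraries labelled WT. Late G&N-L lay below late G&N, with no overlap with late G&N or early G&N-L, and below 1 of the early G&N libraries. The libraries labelled WT had the lowest mean share with Lars2 and Fars2 and the highest without them, although then overlapping with H3K18R.

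**Figure D4:**
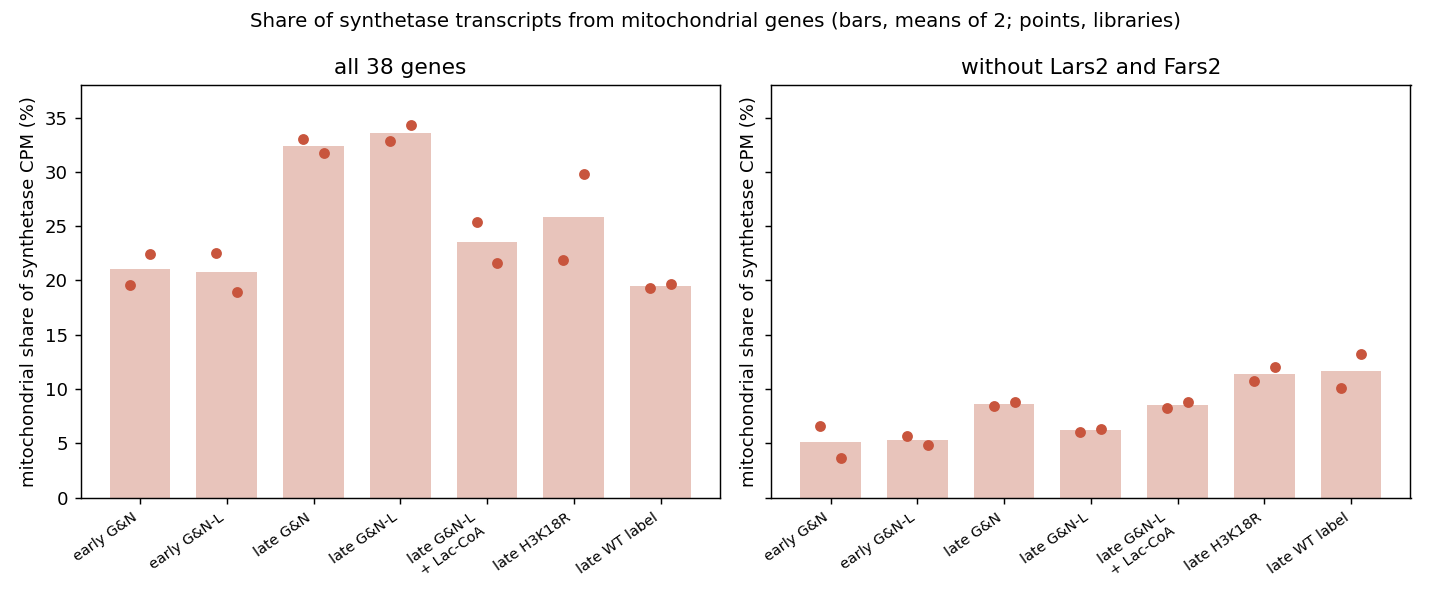
Share of the summed synthetase CPM that came from mitochondrial genes in each condition (bars, mean of 2 libraries; points, libraries), with all 38 genes on the left and without Lars2 and Fars2 on the right. On the left, late G&N and G&N-L were highest at 32.4% and 33.5%, and on the right the H3K18R and WT-labelled libraries were highest, at 10.1% to 13.3%.

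For each mitochondrial gene, the cytosolic gene of the same amino acid was taken as its partner, with Eprs for glutamate and proline and Farsa for phenylalanine, and their levels per kilobase were compared in each library (0.5 added to each count). Mars2 was above Mars1 and Fars2 above Farsa in all 14 libraries, with median log2 ratios of 2.61 and 3.82. Against Farsb, the gene of the other cytosolic subunit, the direction was the opposite. The mean of Fars2 per kilobase was below that of Farsb in every condition, with 11.6 against 47.1 CPM per kb in early G&N and 4.97 against 7.86 in the libraries labelled WT. This rests on the exon lengths used, 11.5 kb for Fars2 and 5.32 kb for Farsb. In CPM, Fars2 was above Farsb in the late conditions, as at 139 against 98.2 in late G&N, and below it in the early ones. Lars2 was above Lars in 11 of 14 libraries (median 2.11, range -0.80 to 5.54), Vars2 above Vars in 11 (2.56), and Cars2 above Cars in 9 (1.53). Iars2, Tars2, Rars2, Pars2, Sars2, Nars2 and Aars2 were below their partners in every library, with medians from -13.4 for Iars2 to -3.66 for Sars2. Iars2, Pars2 and Vars were at 0 in 8, 9 and 6 libraries, where the size of the ratio depends on the added 0.5. The median over the 17 pairs ran from -4.58 to -2.88 in early libraries and from -3.10 to -1.17 in late ones.

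The ratio of the leucyl genes per kilobase differed between the stages, with a mean log2 ratio of Lars2 to Lars of -0.50 ± 0.42 and -0.09 ± 0.38 (SD, 2 libraries each) in early G&N-L and early G&N and of 5.07 ± 0.18 and 3.93 ± 1.08 in late G&N-L and late G&N. Lars had 25.4 to 36.8 CPM in the early libraries and 0.806 to 6.79 CPM in the 10 late ones, while Lars2 had 62.9 to 85.6 CPM early and 44.9 to 181.6 CPM late. Of the arginyl pair, Rars2 had 16.4 to 37.0 CPM early and 0.415 to 12.6 CPM late, and Rars had 17.2 to 30.7 CPM early and 13.9 to 244 CPM late. In late G&N-L, Rars and Rars2 had 13.9 and 18.03 against 5.82 and 9.05 CPM.

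Among lists of related genes, the 12 synthetases known as ATF4 targets were all tested in the stage comparison with lactate. Of these, 1 rose (Yars) and 2 fell (Nars and Wars), beside 8.18% and 5.47% of all genes, with a median log2 fold change of -0.73, and without lactate 2 rose (Aars and Iars) and 3 fell (Lars, Nars and Sars), beside 5.97% and 5.87% of all genes. In late lactate removal their median was -0.10 with 0 called. Of the other genes of the amino acid response, 21 were tested in each stage comparison, and 3 rose and 0 fell with lactate and 4 rose and 0 fell without, to be read against the same shares of all genes. Eif4ebp1, which encodes a repressor of cap-dependent translation, rose from 2.96 and 3.37 to 28.8 and 56.2 CPM with lactate (log2 fold change 3.66 ± 0.53, adjusted p = 0.0162) and from 2.24 and 1.72 to 25.2 and 29.8 CPM without (adjusted p = 0.0111). Psat1, an enzyme of serine synthesis, had 0 and 0 CPM in early G&N-L and 33.4 and 23.6 in late G&N-L (adjusted p = 0.00794). Between the libraries labelled WT and G&N, 1 of the 21 response genes tested rose and 2 fell, beside 1.94% and 2.68% of all genes.

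Of 17 genes of other steps of tRNA charging, 3 rose and 3 fell with lactate (8.18% and 5.47% of all genes) and 2 rose and 3 fell without (5.97% and 5.87%). Prorsd1, which encodes a protein related to the editing domain of prolyl-tRNA synthetases, rose from 3.14 and 3.85 to 34.8 and 46.5 CPM with lactate (3.45 ± 0.46, adjusted p = 0.0137) and from 4.06 and 4.35 to 46.7 and 47.2 CPM without (3.42 ± 0.31, adjusted p = 0.00771). It rose again between late G&N and the libraries labelled WT, at 167 and 181 CPM (2.06 ± 0.24, adjusted p = 0.0413). Xpot, the nuclear exporter of tRNA, went from 0.137 and 0.205 to 10.9 and 7.78 CPM with lactate (adjusted p = 0.0203). Sepsecs, which makes selenocysteyl-tRNA, fell from 67.3 and 45.5 to 8.54 and 4.84 CPM with lactate (-3.13 ± 0.46, adjusted p = 0.0165) and from 49.9 and 66.9 to 5.98 and 5.06 CPM without (adjusted p = 0.00796).

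Of the 3 scaffold genes of the complex, 1 fell in both stage comparisons, Eef1e1, with an adjusted p of 0.0223 with lactate and 0.0137 without, from 227 to 426 CPM in the early libraries to 46.5 to 90.0 CPM in late G&N, G&N-L and Lac-CoA and 103 to 180 CPM in the other late libraries. The 8 synthetase genes of the complex split: Rars rose with lactate, Iars rose and Lars fell without lactate, and Dars, Eprs, Qars and Kars passed in neither, with log2 fold changes from -0.62 to 0.12 with lactate and from -0.70 to -0.09 without. Mars1 was at 0 and 0.114 CPM in early G&N and 0.328 and 4.89 CPM in late G&N, and was not called. Between the libraries labelled WT and G&N, Lage3, a subunit of the complex that modifies tRNA next to the anticodon, and Nupr1, a stress-induced chromatin protein, rose (2.01 ± 0.27 and 3.15 ± 0.47, adjusted p = 0.0413 for both), and Shmt2, the mitochondrial serine hydroxymethyltransferase, fell (-2.43 ± 0.42, adjusted p = 0.0463).

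Pars2 did not pass the filter on low counts in 7 of the 8 comparisons of 2 groups, Iars2 and Aars2 in 6 and 5, Vars in 3, Sars2 in 2 and Yars in 1. Counts of Vars, Iars2 and Aars2 differed widely within some groups. Vars had 0 and 55 counts in late G&N-L and 0 and 0 in late G&N, and Iars2 0 and 90 in late G&N-L and 70 and 30 in early G&N. Aars2 had 53 and 8 counts in late G&N-L and 46 and 0 in late G&N. Members that did not pass the filter were not tested in that comparison, whether their counts were low or came from 1 library alone. Whether they differed was not determined. Nars2, Tars2, Vars2, Yars2 and Tarsl2 were also low, with medians of 0.705, 1.37, 0.792, 1.67 and 0.888 CPM.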

How the data were processed

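The authors deposited 1 table of raw counts per gene for 14 libraries, made per the methods with FastQC, Trim Galore, HISAT2 alignment to mm39 and featureCounts. Versions, strand setting and annotation release are not given in the sources used here, and the library kit does not mark strand. The methods state 3 replicates, and the counts hold 2 libraries in each of 7 groups. Columns named K18A were matched to the samples titled H3K18R. The authors' comparisons used DESeq2.

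From the deposited counts, a separate model was fitted to the 4 libraries of each comparison with edgeR 4.0.16 (R 4.3.3, limma 3.58.1; filterByExpr with a minimum count of 10, TMM, quasi-likelihood F test), with Benjamini-Hochberg adjustment over all genes and a threshold of 0.05. The stage difference was an interaction in 8 libraries, and all 7 conditions were compared in 14. Fold changes used a prior count of 0.125. Levels per kilobase used the summed length of all annotated exons in vM39, a release not known to be the one counted on. Genes at 3 counts or fewer in a group were given as a ratio of summed counts with an exact 95% interval or, at 0, as a bound against 3 counts. Intervals cover counting error only. Totals were 20350427 to 61275465 counts a library. No 2 libraries of a group were duplicates (chi-square per degree of freedom at least 51.9). Equal replicate numbers did not pair the libraries (correlation of deviations from -0.09 to 0.02). Scripts were tested on simulated data. The values of 1 gene enter counts, medians and sums but are not reported here by themselves.

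The genes and lists were chosen with earlier results of these data known. Genes were named by smallest p, up to 8 cytosolic or dual and 8 mitochondrial for the stage comparison with lactate and up to 4 and 4 elsewhere, with the highest and lowest levels per kb, those not passing the filter, and up to 4 called genes of the other lists a comparison. Iars, Farsb and Lars2 calls, Rars where a comparison did not rank it, Dars, Eprs, Qars, Kars and Mars1 of the complex, Eef1e1, and Aars, Iars, Lars and Sars2 over the 7 conditions were named after their values were seen. The lists were the synthetases of the complex, its scaffold, other steps of tRNA charging, amino acid response genes, ATF4 targets and catalytic classes. The alternatives were DESeq2 1.42.0, its size factors, library totals, other filters, all 14 libraries in one fit, a replicate block and each library left out.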

Additional observations from a re-analysis of the deposited data

How the results depend on the processing

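No member named by smallest p, with an unadjusted p under 0.05, changed sign under the alternatives run. Iars and Farsb in the stage comparison without lactate and the genes of the other lists were not followed in this way. Several medians and 3 ratios that rest on no test did change sign, with their values below. Of the counts of synthetase genes called, 95 stayed within 1.5 times the reported count, 15 came out above and 13 below it. The 95 include counts of 0 that stayed at 0, as under every alternative in early lactate removal and H3K18R. They therefore do not measure how stable the calls were. Where a comparison called 0 members, late lactate removal gave 2 by DESeq2. It gave 1 with no filter (317 of all 28941 genes) and 1 with at least 10 counts in every library (114 of 14082). With all 14 libraries in one fit it gave 1 (11 of 25041). Lac-CoA over G&N-L gave 3 and Lac-CoA over G&N 1 by DESeq2. The difference between stages gave 1 by DESeq2 and 1 with no filter (361 of all 32454 genes). Of all genes, DESeq2 called 934 of 19481, 1215 of 19610, 476 of 19613 and 246 of 22287 in these comparisons, in that order. In those that follow, DESeq2 called 5937 of 19443 genes (stage with lactate), 5182 of 18604 (stage without), 4151 of 18986 (WT label over G&N) and 9417 of 25041 (7 conditions). The stage comparison with lactate (8) gave 13 by DESeq2 and 13 with no filter (5060 of all 29321 genes). With any 1 library left out it called fewer members and fewer of all genes. The stage comparison without lactate (7) likewise called fewer members, and fewer of all genes, with any 1 library left out. The libraries labelled WT over G&N (1) gave 7 by DESeq2, 5 with no filter (3668 of 28129 genes) and 5 with at least 10 counts (2971 of 13033). With a library left out, Rars was no longer called there, and fewer of all genes were called too. The 7 conditions (12) gave 19 by DESeq2 and 21 with no filter (8712 of 35149 genes). With a replicate block, 4 members were called with lactate (1839 of all 19443 genes) and 2 without (1391 of 18604). Replicate numbers do not pair the libraries, and the block moved no other count by over 1.5 times. A lone library left in a group was assumed to vary like the others.

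Medians of log2 fold changes moved by more than the spread in 40 cases and by less in 136. With a library left out, they ran from -0.73 to -0.40 (mitochondrial, late removal), -0.43 to 0.20 and -1.37 to 0.0907 (cytosolic and dual, then mitochondrial, early removal), -0.60 to -0.0943 (cytosolic and dual, H3K18R), 0.20 to 0.85 and -0.21 to 0.31 (Lac-CoA over G&N-L), -0.35 to 0.11 (mitochondrial, Lac-CoA over G&N), -0.69 to 0.0622 and 0.14 to 1.63 (stage with lactate), 0.24 to 1.49 (mitochondrial, stage without) and 0.18 to 0.35 (cytosolic and dual, WT label over G&N). The medians of all genes moved as well. They ran from -0.17 to 0.15 (late removal), -0.15 to 0.09 (early removal) and -0.10 to 0.17 (H3K18R). For Lac-CoA they ran from -0.18 to 0.13 over G&N-L and from -0.12 to 0.11 over G&N. The stage comparisons gave -0.10 to 0.62 with lactate and 0.14 to 0.54 without. WT label over G&N gave -0.44 to -0.01. Library totals gave 0.17 (mitochondrial, Lac-CoA over G&N-L), -0.0944 and 1.07 (stage with lactate) and -0.33 and 1.47 (stage without). For mitochondrial genes, no filter gave -0.29 and -0.21 for Lac-CoA over G&N-L and over G&N, at least 10 counts gave 0.30 for the former and 0.61 for the stage without lactate, and all 14 libraries gave -0.24, -0.11 and 1.24 for the same 3. The replicate block gave 1.24 for mitochondrial genes in the stage without lactate and 0.27 for cytosolic and dual genes of the WT label over G&N, where DESeq2 gave 0.51 and its size factors 0.50. The log2 ratio of mitochondrial to cytosolic genes, as a median of pairs in place of sums, was 0.43, 0.51 and 0.82 for Lac-CoA over G&N-L, Lac-CoA over G&N and WT label over G&N, against -0.72, -0.65 and -0.98 from the sums. The causes were not tested.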
